A study of Homo sapiens with 58 samples.

Results

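The ADAM and ADAMTS genes code for related metalloproteases, and all genes of the array with a symbol made of ADAM or ADAMTS and a number were taken. This gave 38 of the 19775 genes measured, 20 ADAM and 18 ADAMTS genes, covered by 93 probe sets that carried a single gene symbol. Each gene was represented by the probe set with the highest mean over the 58 arrays, so the choice used the overall level and no comparison.

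Their transcripts were measured in HaCaT cells, a spontaneously immortalized human keratinocyte line. The lines grown in serum were HaCaT-HRAS (forced expression of HRAS-VAL12D, an activated RAS, 3 arrays), HaCaT-p65 (RELA/p65, the transactivating subunit of NF-κB, 3 arrays), HaCaT-EGFR (the EGF receptor, 5 arrays), HaCaT-vector (labelled mock, 3 arrays) and HaCaT with no forced expression (3 arrays). Ligands were given at 10 ng/ml after 12 h without serum, and RNA was taken at 4 or 8 h. HaCaT-EGFR received EGF (7 arrays) or none (7 arrays) at both times, HaCaT-p65 TNF (5 arrays) or none (3 arrays) at both times, and HaCaT-vector EGF (4 arrays), TNF (3 arrays) or none (4 arrays) at 4 h. The inhibitors were gefitinib, against the EGFR kinase, with EGF or with serum in HaCaT-EGFR (2 arrays each), and LY294002, against PI3K, and U1026, as the labels spell the MEK inhibitor, each with EGF on 1 array of HaCaT-EGFR and 1 of HaCaT-vector. The arrays were processed on 6 dates, all arrays of HaCaT-HRAS and HaCaT and the other serum arrays without inhibitor being of date 1, except for 2 HaCaT-EGFR arrays of date 6. All lines share the mutant p53 background of HaCaT, and the promoters that drove the introduced genes, and whether a line was a single clone, are not given in the sources used here. Nothing states that replicates were separate cultures, so that p-values measure the spread between these arrays, which may be technical.

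HRAS itself was 2.41 higher in log2 in HaCaT-HRAS than in HaCaT-vector (SE 0.0911, adjusted p = 3.05e-23). Of the 9 probe sets for EGFR, 2 were 1.00 and 0.977 higher in HaCaT-EGFR in serum than in HaCaT-vector without overlap, whereas the other 7 differed by −0.423 to 0.229. RELA did not pass in HaCaT-p65 against HaCaT-vector in serum (0.267, adjusted p = 0.256), with arrays at 10.1 to 10.4 against 9.93 to 10.0. Its other probe set differed by 0.401, and the groups overlapped (6.17 to 6.72 against 5.83 to 6.25). Without serum, RELA averaged 9.80 in HaCaT-p65 and 9.86 in HaCaT-vector with no ligand, and 9.77 and 10.1 with TNF. Where these probe sets lie relative to the introduced sequences is not given in the sources used here. The keratinocyte markers KRT5, KRT14, ITGB4, LAMB3 and DSG3 had means of 8.51 to 12.5. Means were 4.00 to 4.78 for the 4 leukocyte markers measured and 4.86 to 6.74 for the 8 fibroblast markers. They were 3.12 to 7.22 for the 5 melanocyte markers measured and 3.82 to 5.49 for the 6 endothelial ones. A mean of at least 5 was reached by 0 leukocyte, 6 fibroblast, 2 melanocyte and 2 endothelial markers. The 3 HaCaT arrays held the pair that lay farthest apart within a group, with an SD of the difference over genes of 0.527, against 0.163 for the closest pair, of starved HaCaT-vector.

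ADAMs are membrane proteins with a disintegrin and a metalloprotease domain. The catalytically active ones cut the outer parts off other membrane proteins, among them the precursors of the EGFR ligands, TNF and its receptors, and Notch, so that in keratinocytes ADAM17 and ADAM10 stand at the start of EGFR signalling. ADAMTS enzymes are secreted, carry thrombospondin repeats and cut the extracellular matrix: ADAMTS1, 4, 5, 8, 9, 15 and 20 cleave proteoglycans such as versican or aggrecan, ADAMTS2, 3 and 14 remove the N-propeptide of procollagens, and the others have various or little-known substrates. ADAM11, ADAM22 and ADAM23 lack a working catalytic site, and ADAM2, 5, 6, 18, 20, 21, 30 and 32 are germ-line genes or, for ADAM5 and ADAM6, pseudogenes in humans.

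The members differed in how far they moved at all. Over the 58 arrays, 13 of the 38 members (34.2%) spanned more than 2 log2 units, against 14% of all genes. Among the proteoglycan-cleaving enzymes it was 5 of 7, among the sheddases 3 of 9, and among the germ-line genes and pseudogenes 0 of 8. ADAMTS5 spanned the widest range of the 38, with 1.63 on its lowest and 7.87 on its highest array, followed by ADAMTS9 at 3.76 to 8.93, ADAMTS15 at 4.37 to 8.68 and ADAMTS1 at 5.82 to 9.97. At the other end lay ADAM10, the sheddase of Notch and E-cadherin, at 11.9 to 12.5, ADAM15, with 6.58 to 7.14, and ADAM2, at 2.88 to 3.46. The TNF-converting enzyme ADAM17 kept within 9.63 and 10.7. A mean of at least 5 was reached by 20 of the members (52.6%) and 63.8% of all genes, and by 1 of the 8 germ-line genes and pseudogenes. Since the signal depends on the probe set, no gene's level was set against that of another.

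**Figure D1:**
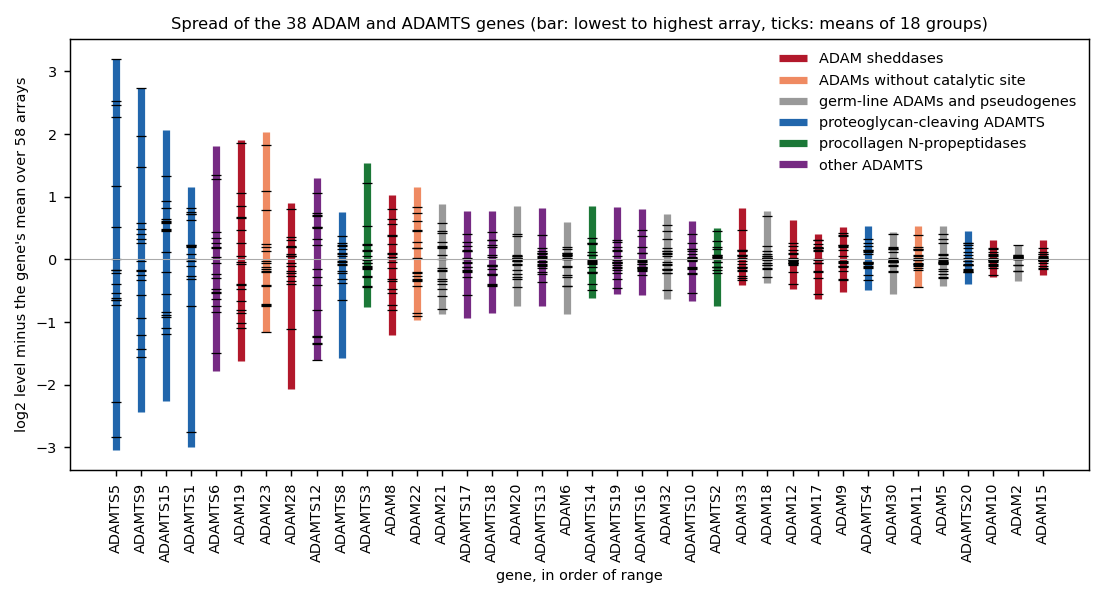
Spread of each of the 38 members over 58 arrays: bars run from the lowest to the highest array as log2 level minus the gene's own mean, ticks are the means of the 18 groups, and colours give the role. ADAMTS5, ADAMTS9, ADAMTS15 and ADAMTS1 have the widest bars, and ADAM10, ADAM2 and ADAM15 the narrowest.

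What activated RAS does to these transcripts was asked by setting HaCaT-HRAS against HaCaT-vector, both grown in serum. Changes are given as the difference of group means in log2, tested with limma and adjusted over all 19775 genes, with calls at an adjusted p under 0.05. Of the members 6 of 38 passed, 4 higher and 2 lower, which is 15.8% against 18.2% of all genes (9.57% higher and 8.63% lower). Their median change was −0.06, against −0.04 over all genes. The share of members called was thus near that of all genes, and the changes lay in single members.

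ADAMTS1, a versican- and aggrecan-cleaving enzyme, fell furthest. Its log2 level was 6.17, 6.21 and 5.82 on the HaCaT-HRAS arrays, against 9.02, 9.06 and 9.04 on the HaCaT-vector arrays. Each HaCaT-HRAS array lay below the lowest of the other 55 arrays of the series, which was 8.08, whatever their line, medium or inhibitor. The difference was −2.97 (SE 0.215, 95% interval −3.41 to −2.54, adjusted p = 2.67e-14), and the gene's other probe set gave −3.42. ADAMTS5, the other aggrecanase that fell and the neighbour of ADAMTS1 on chromosome 21 with 0 coding genes between them, had log2 levels of 1.63, 2.16 and 1.74 in HaCaT-HRAS and of 4.11, 4.21 and 3.87 in HaCaT-vector. The groups did not overlap, and the difference was −2.22 (SE 0.491, adjusted p = 0.000695). Of the 4 probe sets of ADAMTS5, 3 passed in the same direction, and the remaining one gave −0.03. No detection call was available for these values, so whether the low readings of ADAMTS5 in HaCaT-HRAS and in HaCaT-p65 were above background was not assessed, and the sizes of its falls are those of the readings only. Because RNA was extracted from whole cultures, fewer cells with a transcript and less of it per cell cannot be told apart here.

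On the other side, ADAM23, a neuronal receptor of LGI1 without a catalytic site, had log2 levels of 7.61, 7.43 and 7.81 in HaCaT-HRAS and of 6.07, 6.03 and 5.98 in HaCaT-vector. It rose by 1.59 (SE 0.33, adjusted p = 0.000326), and 2 of its 4 probe sets passed. The procollagen N-propeptidase ADAMTS3, which also activates VEGF-C, had levels of 4.52, 5.21 and 4.97 against 3.66, 3.39 and 3.59 in HaCaT-vector. All of its HaCaT-HRAS arrays were above all of its HaCaT-vector arrays, with a difference of 1.35 (SE 0.275, adjusted p = 0.000237). ADAMTS3 had only 1 probe set, with a mean of 3.68 over the series, and whether its readings were above background was not assessed. The versicanase ADAMTS9 was measured at 6.46, 6.24 and 6.87 in HaCaT-HRAS, and at 5.29, 5.12 and 5.35 in HaCaT-vector. Its rise of 1.27 (SE 0.384, adjusted p = 0.0152) was the least firm: the adjusted p was 0.0563 without replicate 2 of HaCaT-vector and 0.0877 without replicate 3 of HaCaT-HRAS, and its 3 other probe sets gave −0.33 to 0.28. ADAM28, a sheddase best known from lymphocytes, was 1.19 higher (SE 0.25, adjusted p = 0.000365), with 2 of its 4 probe sets past the threshold. The other 5 called members held in every fit that left out 1 array of the 2 groups. With the replicate number as a block, all 6 passed and 2 more did, ADAM17 (−0.26, adjusted p = 0.0406) and ADAM21 (−0.74, adjusted p = 0.0248).

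Markers of other cell types moved with the same line. The mean over the 6 endothelial markers was 5.25 to 5.41 on HaCaT-HRAS arrays and 4.63 to 4.70 on HaCaT-vector arrays, and 2 of the 6 had a mean of at least 5 over the series. Of these genes CDH5 was at 8.55 to 8.73 in HaCaT-HRAS and 4.34 to 4.40 in HaCaT-vector, and without it the mean was 4.56 to 4.76 and 4.68 to 4.77. For the 4 leukocyte markers, 0 of which had such a mean, it was 4.71 to 4.83 and 4.29 to 4.41. LYZ was at 5.60 to 6.53 and 4.07 to 4.44, and the other 3 overlapped or were lower in HaCaT-HRAS. For the 5 keratinocyte markers the mean was 10.0 to 10.2 and 10.76 to 10.97. KRT14 was at 10.7 to 10.9 in HaCaT-HRAS and 13.0 to 13.2 in HaCaT-vector. KRT5, LAMB3 and DSG3 were also lower in HaCaT-HRAS without overlap, while ITGB4 overlapped. The 8 fibroblast markers averaged 5.17 to 5.30 in HaCaT-HRAS, 5.58 to 5.78 in HaCaT-p65, 5.17 to 5.32 in HaCaT-EGFR and 4.84 to 5.12 in HaCaT-vector. In HaCaT-HRAS TWIST1 was at 8.51 to 8.56, against 4.81 to 5.05 in HaCaT-vector. COL1A1 and LUM were lower in HaCaT-HRAS, and the rest overlapped. In HaCaT-p65 LUM was at 9.96 to 10.1 against 4.42 to 5.03 and PDGFRB was higher, while TWIST1 was lower. In HaCaT-EGFR COL3A1 was at 5.06 to 5.29 against 2.47 to 3.68, with TWIST1 and COL1A2 higher and LUM lower. The part of all these markers in the changes was not tested.

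Set against HaCaT with no forced expression instead of HaCaT-vector, a comparison added after the data were seen, HaCaT-HRAS had 9 of 38 members past the threshold, 4 higher and 5 lower. The share of all genes called is not given here, so this count is not read as a result about the members. The fall of ADAMTS1 was −3.38 (adjusted p = 6.8e-16) and that of ADAMTS5 −2.66 (adjusted p = 6.43e-05), while ADAMTS9 gave 0.89 (adjusted p = 0.116). For ADAMTS5 a HaCaT array at 1.79 lay within the range of the HaCaT-HRAS arrays, so the groups overlapped. ADAM28 (1.91, adjusted p = 1.29e-07), ADAMTS3 (1.08, adjusted p = 0.00355) and ADAM23 (1.04, adjusted p = 0.021) were higher here too. ADAMTS15 (−1.52, adjusted p = 0.00283) and ADAM9 (0.44, adjusted p = 0.00268), not called against HaCaT-vector, passed. ADAM17 and ADAM10 differed from HaCaT by −0.36 (adjusted p = 0.0151) and −0.23 (adjusted p = 0.0445), and neither was called against HaCaT-vector (−0.26 and −0.14).

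For HaCaT-p65 against HaCaT-vector in serum, which asks for the effect of NF-κB p65, 3 of 38 members passed (7.89%), 2 higher and 1 lower, against 7.18% of all genes (3.99% higher and 3.19% lower). ADAMTS12, which cleaves cartilage oligomeric matrix protein, had log2 levels of 8.79, 8.75 and 8.69 on HaCaT-p65 arrays and 6.97, 6.77 and 6.91 on HaCaT-vector arrays. These groups lay far apart, with a difference of 1.86 (SE 0.287, 95% interval 1.28 to 2.44, adjusted p = 1.01e-05), and the call held without any single array. It rests on the probe set used, since the gene's other one gave 0.08 here (adjusted p = 0.955). ADAMTS6, a relative of the fibrillin-binding ADAMTS10, reached 9.07, 9.41 and 9.07 against 8.10, 7.49 and 8.24. It was 1.24 higher (SE 0.35, adjusted p = 0.0189), but at 0.147 without replicate 2 of HaCaT-vector and 0.096 without replicate 2 of HaCaT-p65. The other probe sets of ADAMTS6 gave −0.0008 and 1.14, and neither passed. For ADAMTS5 the arrays read 2.24, 2.15 and 2.80 in HaCaT-p65 and 4.11, 4.21 and 3.87 in HaCaT-vector. This fall of −1.67 (SE 0.491, adjusted p = 0.0266) no longer passed without any 1 of 5 of the 6 arrays, with adjusted p of 0.0534 to 0.11. Against HaCaT with no forced expression, ADAMTS12 (1.46, adjusted p = 0.000546) and ADAMTS5 (−2.10, adjusted p = 0.00428) passed as well, ADAMTS6 did not (1.02, adjusted p = 0.078), and the neuregulin sheddase ADAM19 (1.89, adjusted p = 0.000118), ADAM28 (1.42, adjusted p = 0.000125) and ADAM8 (0.71, adjusted p = 0.0337) did. The HaCaT arrays scattered widely for ADAMTS5 and ADAM28, as given below. For ADAMTS5 a HaCaT array at 1.79 lay below all HaCaT-p65 arrays.

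The promoter windows of ADAMTS12 and ADAMTS6, both on chromosome 5 and both higher in HaCaT-p65, are shown because NF-κB and AP-1 are the factors the introduced genes are known to act through. They are the 250 bases before the gene start on the gene's own strand in RefSeq (GRCh38.p14), at chr5:33891991-33892240 (minus strand) and chr5:65481921-65482170 (minus strand), with the AP-1 letters TGANTCA in capitals.
ADAMTS12: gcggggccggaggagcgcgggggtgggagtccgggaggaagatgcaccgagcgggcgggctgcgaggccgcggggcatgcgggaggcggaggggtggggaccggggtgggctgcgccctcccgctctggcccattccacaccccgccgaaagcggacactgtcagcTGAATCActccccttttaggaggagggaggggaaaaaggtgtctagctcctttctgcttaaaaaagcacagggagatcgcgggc
ADAMTS6: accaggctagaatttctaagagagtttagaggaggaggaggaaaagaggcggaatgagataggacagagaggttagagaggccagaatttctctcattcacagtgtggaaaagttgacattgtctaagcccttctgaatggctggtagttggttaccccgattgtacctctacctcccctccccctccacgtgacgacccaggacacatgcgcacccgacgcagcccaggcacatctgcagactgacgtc
Such a window was at hand for 22 of the 38 members. TGANTCA, searched on both strands, was in 1 of the 22, that of ADAMTS12, at position −84 from the gene start, and in 6.6% of all 27305 windows. The κB motif was in 0 of 22 and in 5.05% of all windows, and the serum response element's CArG box in 0 of 22 and 1.14%. GCGNGGGCG, the letters bound by EGR factors, which do not overlap any AP-1 match here, stood in 2 of the 22, those of ADAM15 and ADAMTS10, and in 8.25% of all. These counts describe the letters in the windows only.

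HaCaT-EGFR in serum differed from HaCaT-vector by 3 of 38 members (7.89%), all higher, against 7.87% of all genes (3.97% higher and 3.9% lower). The largest change was that of a versicanase: ADAMTS9 had levels of 8.27, 7.30, 7.45, 7.84 and 7.51 in HaCaT-EGFR, against 5.29, 5.12 and 5.35 in HaCaT-vector. Every HaCaT-EGFR array was above every HaCaT-vector array, and the difference was 2.42 (SE 0.384, 95% interval 1.64 to 3.20, adjusted p = 1.63e-05). It rests on the probe set used, since the gene's 3 others gave −0.19 to 0.29. ADAMTS12 was measured at 8.64, 8.10, 8.53, 8.39 and 8.46 in HaCaT-EGFR, above its 6.97, 6.77 and 6.91 in HaCaT-vector, which is a rise of 1.54 (SE 0.287, adjusted p = 2e-04), against 0.38 (adjusted p = 0.517) for its other probe set. ADAM22, the second LGI1 receptor without a catalytic site, was at 5.93, 6.60, 6.51, 6.13 and 6.56, and at 5.22, 5.53 and 5.20 in HaCaT-vector, 1.03 higher (SE 0.214, adjusted p = 0.000828). Another of its probe sets passed (0.81, adjusted p = 0.00564), while the rest gave −0.23 to 0.34 and did not. All 3 calls held without any single array. Against HaCaT, ADAMTS9 (2.04, adjusted p = 0.000518) and ADAMTS12 (1.14, adjusted p = 0.0127) passed and ADAM22 did not (0.53, adjusted p = 0.216). ADAM28 was also higher than in HaCaT (1.197, adjusted p = 0.00191), and ADAM23 was lower (−1.19, adjusted p = 0.0291). The HaCaT arrays of ADAM28 scattered widely, as given below. The comparisons of the 3 lines share the HaCaT-vector arrays.

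**Figure D2:**
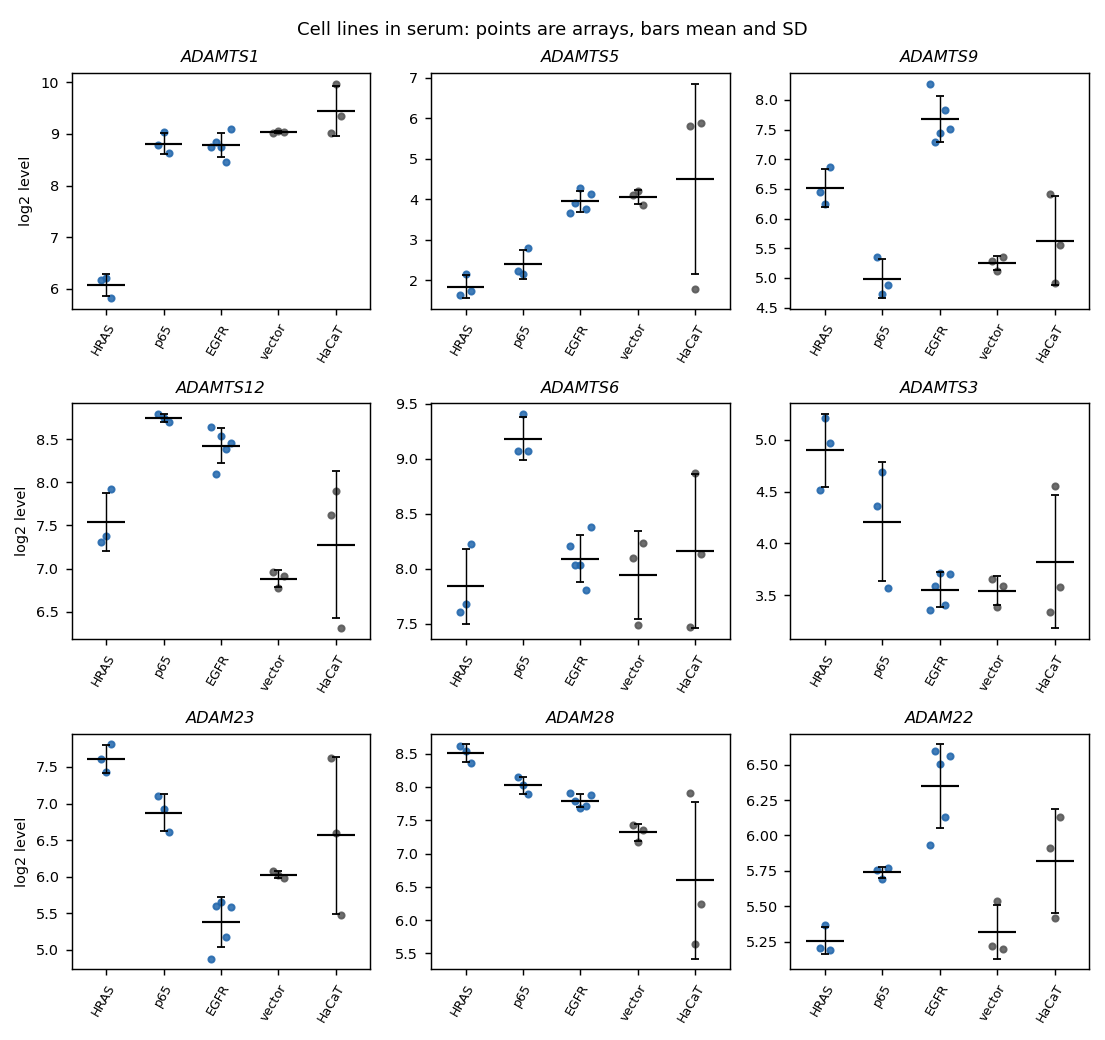
Log2 level of the 9 members called in any line grown in serum, with 1 point per array, the mean and the SD, for HaCaT-HRAS, HaCaT-p65, HaCaT-EGFR, HaCaT-vector and HaCaT from left to right. ADAMTS1 is at 5.82 to 6.21 in HaCaT-HRAS and ADAMTS9 highest in HaCaT-EGFR, and the 3 HaCaT arrays scatter widely.

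HaCaT-vector against HaCaT in serum, the check of the vector alone, gave 0 of 38 members by limma, with 2.87% of all genes called (1.23% higher and 1.64% lower). At an unadjusted p under 0.05 there were 6 of 38, against 10.7% of all genes, and limma with a mean-variance trend and robust variances also called 0. The nearest was ADAM19, 1.10 higher in HaCaT-vector (SE 0.33, adjusted p = 0.0602). The HaCaT arrays themselves differed more than the groups: ADAMTS5 was at 4.11, 4.21 and 3.87 in HaCaT-vector and at 5.82, 1.79 and 5.89 in HaCaT, and ADAM28 at 7.43, 7.18 and 7.36 in HaCaT-vector and at 7.91, 5.64 and 6.24 in HaCaT. Leaving out a HaCaT array gave 1 call each time, ADAM28 without replicate 1 (1.38, adjusted p = 7.51e-08), ADAMTS5 without replicate 2 (−1.79, adjusted p = 1.88e-05) and ADAM19 without replicate 3 (1.39, adjusted p = 0.0218).

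Without serum, HaCaT-EGFR differed from HaCaT-vector in 4 of 38 members (10.5%), 1 higher and 3 lower, against 7.89% of all genes (3.95% higher and 3.94% lower). HaCaT-p65 differed from HaCaT-vector likewise in 4 of 38 (10.5%), 2 higher and 2 lower, against 5.3% of all genes (2.34% higher and 2.96% lower). ADAMTS5 had levels of 3.82 to 4.99 (median 4.56) on the 7 HaCaT-EGFR arrays and of 4.52, 4.62 and 4.39 on the HaCaT-p65 arrays, while the HaCaT-vector arrays read 7.14, 6.95, 7.28 and 7.45. The changes were −2.75 (SE 0.561, adjusted p = 0.000704) and −2.70 (SE 0.676, adjusted p = 0.0108). With and without EGF or TNF, the 11 HaCaT-vector arrays lay between 6.69 and 7.45. The 14 HaCaT-EGFR arrays lay at 3.68 to 4.99 and the 8 HaCaT-p65 arrays at 4.08 to 4.62. The date effect had been subtracted from all these values, and only date 6 holds HaCaT-vector and another line without serum. The arrays with ligand share that correction, so they add no separate support for the line difference. ADAMTS12 showed the reverse order, with 7.77 to 8.99 (median 8.12) in HaCaT-EGFR and 8.49, 8.53 and 8.11 in HaCaT-p65, against 6.30, 6.50, 6.41 and 6.25 in HaCaT-vector. It was higher by 1.84 (SE 0.328, adjusted p = 0.000118) and by 2.02 (SE 0.395, adjusted p = 0.000864). Both lines thus had higher ADAMTS12 than HaCaT-vector in both media by this probe set, whereas the other one gave 0.46 and 0.47 without serum and passed in neither line.

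The proteoglycanase ADAMTS15 was lower in starved HaCaT-EGFR, at 4.70 to 6.14 (median 5.44), against 7.52, 7.57, 7.50 and 7.66 in HaCaT-vector (−2.03, SE 0.434, adjusted p = 0.00128). In HaCaT-p65 its arrays read 6.91, 6.56 and 6.77, all below HaCaT-vector, but the difference did not pass (−0.81, adjusted p = 0.464). The other probe set of ADAMTS15 gave −0.26 in starved HaCaT-EGFR (adjusted p = 0.771). ADAM9, a widely expressed sheddase, was the one with the smallest change to pass, with 9.49 to 9.87 (median 9.69) in HaCaT-EGFR and 9.80, 9.72 and 9.49 in HaCaT-p65, below the 10.1 to 10.3 of HaCaT-vector. These differences were −0.52 (SE 0.126, adjusted p = 0.00479) and −0.54 (SE 0.152, adjusted p = 0.026). The other probe sets of ADAM9 gave −0.49 and −0.33 in HaCaT-EGFR and −0.63 and −0.17 in HaCaT-p65, and none passed. ADAMTS6 was at 8.01, 8.89 and 8.14 in starved HaCaT-p65 and at 6.36, 6.13, 6.48 and 6.69 in HaCaT-vector (1.93, SE 0.482, adjusted p = 0.0104). Its other probe sets gave 0.22 and 0.57, and neither passed. None of these 8 calls without serum had overlapping groups, which was not counted over all genes and adds no support to the calls.

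HaCaT-vector is linked to the dates of the other lines through its arrays of date 6, 1 without ligand and, in the fit, 1 with EGF. HaCaT-EGFR and HaCaT-vector without ligand share only date 6, with 3 arrays and 1 array, and no date holds both HaCaT-p65 and HaCaT-vector without serum, so that this second comparison runs through the HaCaT-EGFR arrays. Without the HaCaT-vector array of date 6 with no ligand (replicate 1), 0 of the 38 members passed in either comparison. The adjusted p was 0.0847 for ADAMTS12 and 0.217 for ADAMTS5 in HaCaT-EGFR, and 0.103 and 0.345 in HaCaT-p65. In HaCaT-p65, ADAM9 also failed without replicate 2 of the starved group at 4 h (0.135) and ADAMTS6 without its 8 h array (0.0526). Within date 6 the HaCaT-EGFR values differed from that array by −2.98 for ADAMTS5, 1.94 for ADAMTS12, −1.999 for ADAMTS15 and −0.55 for ADAM9.

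**Figure D3:**
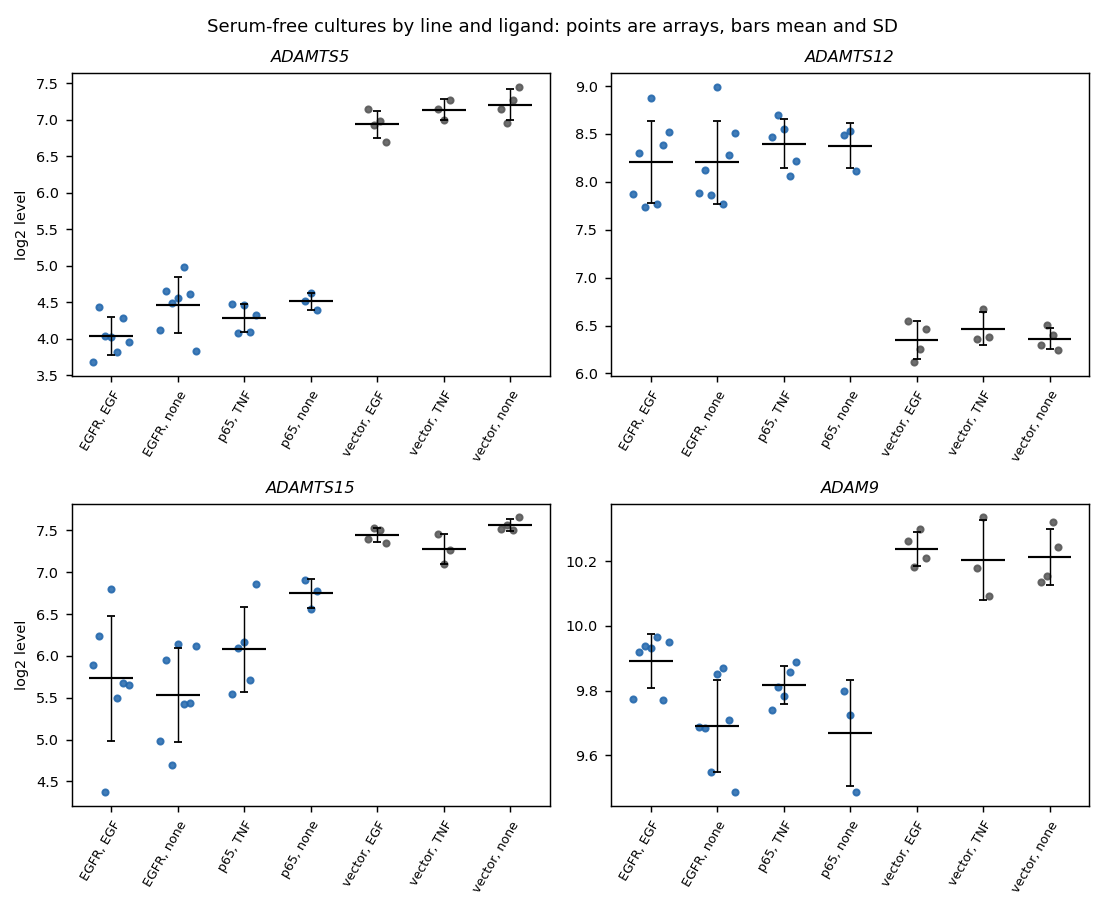
Log2 level of ADAMTS5, ADAMTS12, ADAMTS15 and ADAM9 in serum-free cultures, with 1 point per array, mean and SD, for HaCaT-EGFR, HaCaT-p65 and HaCaT-vector by ligand. ADAMTS5 lies at 6.69 to 7.45 in HaCaT-vector and at 3.68 to 4.99 in the other lines, and ADAMTS12 the other way round.

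Serum against starvation in HaCaT-EGFR raised 3 members (7.89% of 38, against 3.25% of all genes, 1.26% higher and 1.99% lower). ADAM19, which sheds neuregulin, was at 11.9, 11.3, 12.3, 12.1 and 11.6 in serum and at 9.38 to 10.9 (median 9.82) in the 7 starved cultures, 1.93 higher (SE 0.347, adjusted p = 0.000941). ADAM8, a sheddase of leukocytes and of stressed epithelium, was at 7.60, 7.62, 7.81, 7.71 and 7.65 in serum, above all starved arrays, which were at 6.10 to 7.34 (median 6.47). Its rise was 1.11 (SE 0.221, adjusted p = 0.00335), and both of its probe sets passed. The second probe set of ADAM19 gave 0.28 (adjusted p = 0.659). ADAMTS15 was at 6.77 to 7.38 in serum and at 4.70 to 6.14 in starved cultures (1.57, SE 0.4, adjusted p = 0.0199), and its second probe set gave 0.09 (adjusted p = 0.931). None of the 3 passed without replicate 1 of the serum group at 4 h of date 6 (adjusted p of 0.13 for ADAM19, 0.133 for ADAM8 and 0.255 for ADAMTS15), nor ADAMTS15 without the 8 h array of that date (0.0974). Within date 6, the differences were 1.98 for ADAM19, 0.96 for ADAM8 and 1.44 for ADAMTS15.

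The promoter windows of these sheddases are shown because both were called with serum and each was called with gefitinib in 1 of the media, ADAM8 with EGF and ADAM19 with serum. They lie at chr5:157575776-157576025 (ADAM19, minus strand) and chr10:133276869-133277118 (ADAM8, minus strand) in GRCh38.p14, again as the 250 bases before the start.
ADAM19: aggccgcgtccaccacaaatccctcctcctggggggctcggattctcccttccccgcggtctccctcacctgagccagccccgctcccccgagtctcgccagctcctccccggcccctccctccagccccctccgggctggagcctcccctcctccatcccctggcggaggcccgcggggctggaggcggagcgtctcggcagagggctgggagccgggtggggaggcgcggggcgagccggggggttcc
ADAM8: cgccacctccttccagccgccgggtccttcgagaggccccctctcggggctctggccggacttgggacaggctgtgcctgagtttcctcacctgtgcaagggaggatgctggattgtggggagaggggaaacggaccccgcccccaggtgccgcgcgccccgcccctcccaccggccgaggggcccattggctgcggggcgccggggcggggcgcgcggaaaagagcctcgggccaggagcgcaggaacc
Neither window held any of the motifs searched, so no letters are in capitals. They are 76.4% and 73.6% G or C, against a median of 58% over all windows, with 21 and 23 CG pairs against a median of 11, while the windows of ADAMTS12 and ADAMTS6 are 68.4% and 52.4% G or C.

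EGF against no ligand is the direct test of receptor stimulation. In HaCaT-EGFR 3 of 38 members passed (7.89%), 2 higher and 1 lower, against 8.8% of all genes (3.88% higher and 4.93% lower). ADAM8 was at 7.03 to 7.59 (median 7.33) with EGF and at 6.10 to 7.34 (median 6.47) without, 0.74 higher (SE 0.138, adjusted p = 0.000368), against 0.18 (adjusted p = 0.568) for its second probe set. ADAMTS6 was at 7.47 to 9.02 (median 8.42) with EGF and 6.67 to 8.24 (median 7.07) without, 0.97 higher (SE 0.229, adjusted p = 0.00433). Its other probe sets gave 0.05 and 0.55, and neither passed. For both genes the 2 groups overlapped as a whole, but the means differed in the same direction within each of the 3 dates, by 0.44 to 1.13 for ADAM8 and by 0.64 to 1.26 for ADAMTS6. By time, ADAM8 was 0.83 higher at 4 h and 0.50 at 8 h, and ADAMTS6 was 0.88 higher at 4 h and 1.21 at 8 h; no difference between the times was tested. ADAM22 was lower, at 6.07 to 6.75 (median 6.44) with EGF and 6.57 to 7.33 (median 6.87) without (−0.48, SE 0.14, adjusted p = 0.0249), a call that was lost without any 1 of 6 of the 14 arrays, at adjusted p of 0.0508 to 0.0881. The other probe sets of ADAM22 gave −0.30 to −0.12, and none passed.

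In HaCaT-vector EGF raised 1 member (2.63% of 38, against 1.01% of all genes, 0.617% higher and 0.389% lower). It was ADAMTS6 again, with 8.32, 7.99, 8.26 and 7.82 with EGF and 6.36, 6.13, 6.48 and 6.69 without. The groups did not overlap, and the rise was 1.68 (SE 0.312, adjusted p = 0.00299), 1.12 to 1.95 within the 3 dates that hold both. Without replicate 1 of date 5 of the EGF group the adjusted p was 0.0714. The call rests on the probe set used, since the gene's others gave −0.02 and 0.61 and neither passed. The difference in the response between the lines, tested as an interaction, passed for 0 of 38 members and 0 of all genes, with 1 of 38 at an unadjusted p under 0.05, against 1.73% of all genes, and 0 by limma with trend and robust variances. For ADAMTS6 it was −0.71 with a 95% interval of −1.49 to 0.07, and for ADAM8 0.35 with −0.12 to 0.82, and both intervals include 0. The 1 member was ADAMTS1, with −0.72 and an interval of −1.20 to −0.24 (adjusted p = 1.00). It read 9.38 to 9.93 in EGF-treated HaCaT-vector and 8.93 to 9.18 without ligand.

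Gefitinib in HaCaT-EGFR asks which of these levels needs the EGFR kinase. With EGF, 2 of 38 members passed (5.26%), 1 higher and 1 lower, against 1.81% of all genes (0.728% higher and 1.08% lower). ADAMTS1 was at 9.57 and 9.56 with gefitinib and at 8.54 to 9.03 (median 8.69) with EGF alone, 0.86 higher (SE 0.227, adjusted p = 0.0349). Its other probe set gave 0.56 (adjusted p = 0.378). ADAM8 was at 6.32 and 6.66 with gefitinib, below its 7.03 to 7.59 with EGF alone (−0.82, SE 0.221, adjusted p = 0.0409). Its second probe set gave −0.22 (adjusted p = 0.846). Adjusted over all single-symbol probe sets, as that one was, the probe set used did not pass either (adjusted p = 0.0582). The levels of ADAM8 with gefitinib were in the range of the cultures without ligand. With serum 1 of 38 passed (2.63%, against 1.79% of all genes, 0.87% higher and 0.915% lower). ADAM19 was at 10.4 and 9.95 with gefitinib and at 11.3 to 12.3 in serum alone (−1.65, SE 0.404, adjusted p = 0.0207), with a difference of 0.00 in its second probe set. Each of these groups holds 1 array at 4 h and 1 at 8 h, and no call held without either gefitinib array except that of ADAM19 without the 4 h one. The calls also failed without single EGF or serum arrays: ADAMTS1 without those of date 6 at 4 h (replicate 1, 0.0779) or 8 h (0.0525), ADAM8 without replicate 3 of date 3 (0.0515) or the 8 h array of date 6 (0.0602), and ADAM19 without the 4 h serum array of date 6 (0.304). ADAMTS6, at 7.48 and 7.28 with gefitinib and EGF and at 7.34 and 7.40 with gefitinib and serum, did not pass in either.

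**Figure D4:**
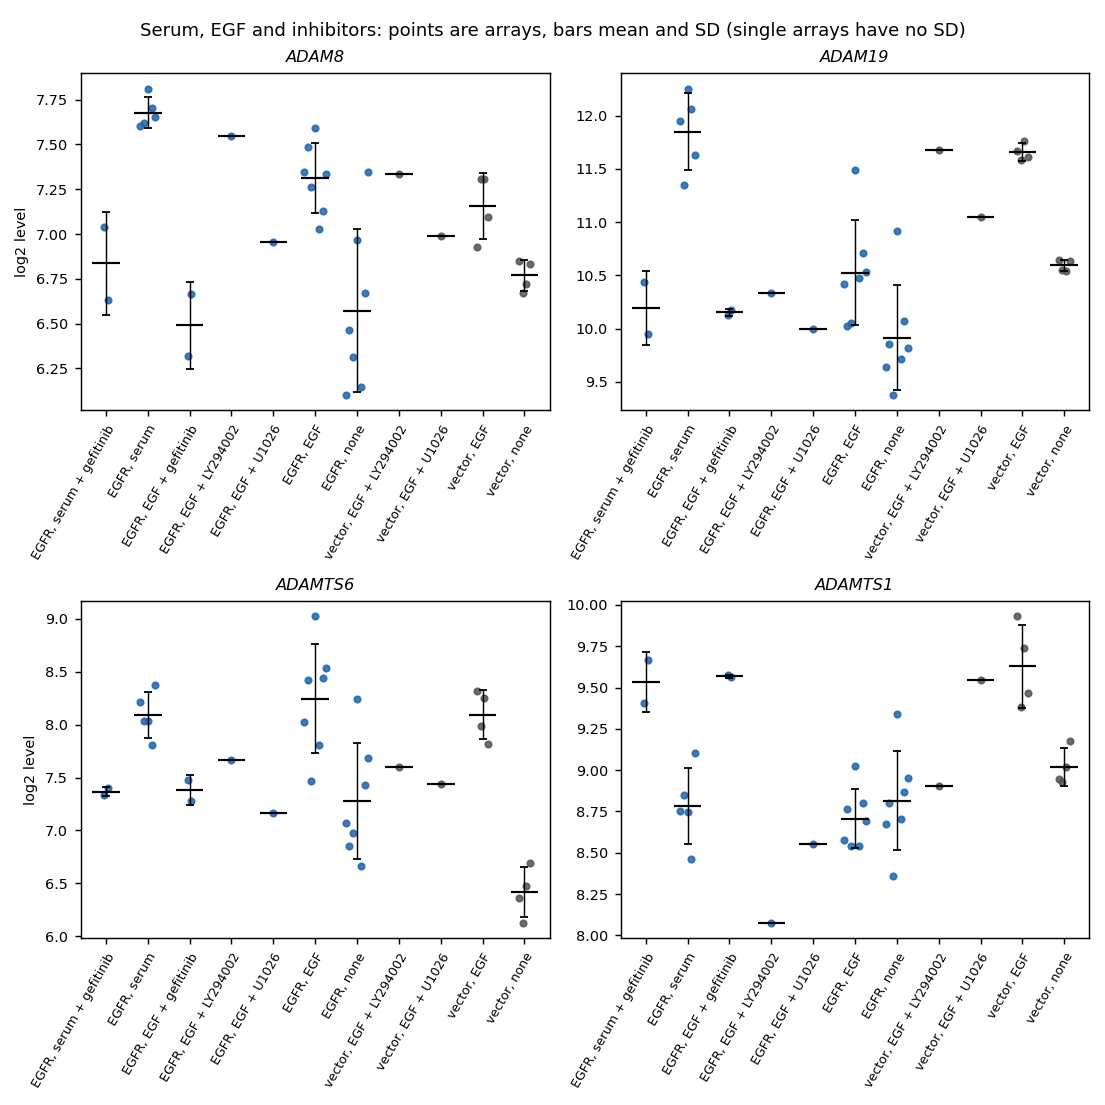
Log2 level of ADAM8, ADAM19, ADAMTS6 and ADAMTS1 in HaCaT-EGFR and HaCaT-vector by medium, ligand and inhibitor, with 1 point per array, the mean and, for more than 1 array, the SD. In HaCaT-EGFR, the mean of ADAM8 and of ADAMTS6 is higher with EGF than with none, and ADAM19 is at 11.3 to 12.3 in HaCaT-EGFR in serum and at 9.95 and 10.4 with gefitinib.

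LY294002 and U1026 were compared with EGF alone as the mean over both lines, with 1 inhibitor array per line that is assumed to vary like the other groups. Of the 38 members 0 passed for LY294002 (0.693% of all genes, 0.248% higher and 0.445% lower) and 0 for U1026 (3.02% of all genes, 1.29% higher and 1.73% lower). At an unadjusted p under 0.05 there were 1 and 4, against 10% and 14.4% of all genes, and 0 for both by limma with trend and robust variances. The largest difference was that of ADAMTS9 with U1026, at 8.93 in HaCaT-EGFR and 6.45 in HaCaT-vector, against means of 6.77 and 6.03 with EGF alone (1.29 over both, SE 0.399, adjusted p = 0.0674), which passed without replicate 3 of date 3 of the EGF group in HaCaT-EGFR (1.34, adjusted p = 0.0397). The HaCaT-EGFR array with U1026 was the highest of the series for this gene. ADAMTS6 was at 7.17 and 7.43 with U1026, against means of 8.25 and 8.10 with EGF alone (−0.87, adjusted p = 0.224), and ADAMTS1 at 8.08 and 8.90 with LY294002, against 8.71 and 9.63 (−0.68, adjusted p = 0.177). ADAMTS5 with U1026 read 5.19 and 7.87, against 4.03 and 6.94 with EGF alone (1.04, adjusted p = 0.337).

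TNF against no ligand, the stimulus of the NF-κB pathway, called 0 of 38 members in HaCaT-p65 (2.03% of all genes, 0.698% higher and 1.34% lower) and 0 of 38 in HaCaT-vector (0.905% of all genes, 0.885% higher and 0.0202% lower). At an unadjusted p under 0.05 there were 6 and 2, against 17.7% and 6.33% of all genes, and limma with trend and robust variances called 0 in both. ADAMTS6 was at 8.43 to 9.72 (median 9.37) with TNF and at 8.01, 8.89 and 8.14 without in HaCaT-p65 (0.91, 95% interval 0.27 to 1.55, adjusted p = 0.115). In HaCaT-vector it was at 6.81, 7.26 and 7.13 with TNF and 6.36, 6.13, 6.48 and 6.69 without (0.65, interval −0.06 to 1.36, adjusted p = 0.866). ADAM32, a testis gene, came nearest in HaCaT-p65 (0.56, adjusted p = 0.0533), and ADAM17 differed by 0.18 in HaCaT-vector (interval −0.04 to 0.40). By the interaction test of the response between the lines 0 of 38 passed, with 0 of 38 also at an unadjusted p under 0.05 and 0 by limma with trend and robust variances, and 0.0101% of all genes were called. One array of the TNF group in HaCaT-p65, replicate 3 at 4 h, is described as a control in the study's sample sheet while its label gives TNF, and was kept with TNF. Without it ADAM32 passed (0.63, adjusted p = 0.0239), as did ADAM32 (0.67, adjusted p = 0.0113) and ADAMTS6 (1.10, adjusted p = 0.034) without replicate 2 of the same date.

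**Figure D5:**
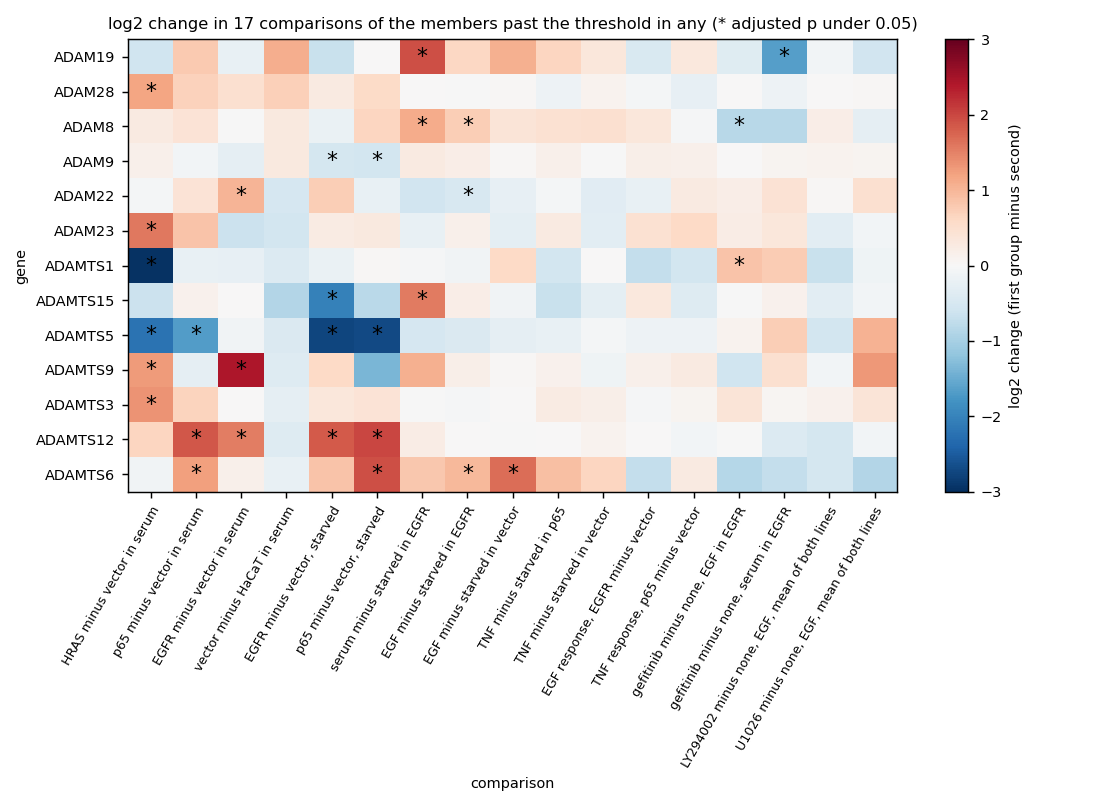
Log2 change, first group minus second, of the 13 members that passed in any of the 17 comparisons, with an asterisk where the adjusted p was under 0.05. ADAMTS5 and ADAMTS12 have asterisks in 4 comparisons each, and the columns of TNF, the interactions, LY294002, U1026 and HaCaT-vector against HaCaT hold none.

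The proteins that regulate these enzymes were followed, by their transcripts only, through a list of 19 partners and inhibitors. These include the iRhoms that carry ADAM17 to the surface, the tetraspanins that carry ADAM10, the proprotein convertases that remove the prodomain, and the TIMPs. In HaCaT-HRAS against HaCaT-vector 7 of 19 passed, 3 higher and 4 lower (36.8%, against 18.2% of all genes). This list was chosen with earlier results of these data known, so its share is not read as an excess. TIMP3, the inhibitor of ADAM17 and of the aggrecanases, was 3.17 higher (SE 0.44, adjusted p = 3.7e-07), TIMP1, which inhibits ADAM10, 1.59 higher (adjusted p = 2.37e-11), the convertase PCSK5 −1.17 (adjusted p = 4.11e-06) and the tetraspanin TSPAN5 −1.15 (adjusted p = 5.5e-06). TIMP3 was also lower in HaCaT-vector than in HaCaT (−2.003, adjusted p = 0.00413), and against HaCaT its rise in HaCaT-HRAS did not pass (1.17, adjusted p = 0.0601). TIMP1 was called in all 3 line comparisons in serum, higher by 1.23 in HaCaT-p65 and by 1.40 in HaCaT-EGFR. It was lower in HaCaT-vector than in HaCaT, though (−0.79, adjusted p = 0.000536), and against HaCaT it was 0.80 higher in HaCaT-HRAS (adjusted p = 5.83e-05), 0.61 in HaCaT-EGFR (adjusted p = 0.00827) and not called in HaCaT-p65 (0.44, adjusted p = 0.0684). It was also higher with EGF, by 0.60 in HaCaT-EGFR and 0.53 in HaCaT-vector, and lower with U1026 (−0.71, adjusted p = 0.00474) and with gefitinib in serum (−0.75, adjusted p = 0.0172).

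Of 30 measured transcripts of proteins that ADAMs shed, 11 passed in HaCaT-HRAS (5 higher, 6 lower), 10 in HaCaT-p65 (9 higher, 1 lower) and 4 in HaCaT-EGFR (3 higher, 1 lower), each against HaCaT-vector in serum. These are 36.7%, 33.3% and 13.3% of the list, against 18.2%, 7.18% and 7.87% of all genes. Earlier results were known when this list was chosen too, so none of its shares is read as an excess. In HaCaT-HRAS the EGFR ligand precursors BTC (2.24, adjusted p = 6.11e-07) and HBEGF (1.77, adjusted p = 9.64e-06) were higher, and KITLG was lower (−1.82). L1CAM (2.53, adjusted p = 6.72e-07) and TNF (2.38, adjusted p = 2.02e-08) led in HaCaT-p65. L1CAM was however lower in HaCaT-vector than in HaCaT (−1.85, adjusted p = 0.00043) and did not pass against HaCaT (0.68, adjusted p = 0.314), while TNF did (2.91, adjusted p = 2.56e-10). EGF in HaCaT-EGFR changed 10 of the 30 (7 higher, 3 lower; 33.3%, against 8.8% of all genes), among them the EGFR ligand precursors TGFA (0.94), EREG (0.88) and HBEGF (0.81). With gefitinib and EGF these changed by −1.13, −1.27 and −1.51. With gefitinib and serum, where ADAM8 was not called, they changed by −1.54, −0.96 and −2.10 and passed as well. A link between these precursors and ADAM8 was not tested. TNF raised 3 of the 30 in each line (10%, against 2.03% of all genes in HaCaT-p65 and 0.905% in HaCaT-vector), TNF itself by 1.15 in HaCaT-p65 and by 2.88 in HaCaT-vector.

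Among the transcripts of 22 matrix and secreted substrates of ADAMTS enzymes, 4 passed in HaCaT-HRAS, 4 in HaCaT-p65 and 9 in HaCaT-EGFR against HaCaT-vector in serum. These are 18.2%, 18.2% and 40.9% of the list, against 18.2%, 7.18% and 7.87% of all genes. The same limit on the choice of the list holds for these shares. VCAN, the versican that ADAMTS1 and ADAMTS9 cleave, was −0.99 in HaCaT-HRAS (adjusted p = 0.00686), and 1.498 in HaCaT-EGFR (adjusted p = 0.000148). Fibronectin, FN1, was higher in all 3 lines, by 2.27, 1.76 and 1.27 in HaCaT-HRAS, HaCaT-p65 and HaCaT-EGFR, of which the last did not pass against HaCaT (0.92, adjusted p = 0.0627). The fibrillin FBN2 was 0.79 in HaCaT-HRAS (adjusted p = 0.00275, and 0.0695 against HaCaT) and −3.09 in HaCaT-EGFR (adjusted p = 9.71e-15). VEGFC, the growth factor that ADAMTS3 activates, was higher with EGF in both lines, by 0.94 in HaCaT-EGFR and 1.04 in HaCaT-vector. The 7 ADAMTS-like and related genes without a protease domain gave 1 call in HaCaT-HRAS (PAPLN, −0.86) and 1 in HaCaT-p65 (THSD4, 0.95). Each is 14.3% of the list, against 18.2% and 7.18% of all genes.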

How the data were processed

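Gene expression was measured on 58 Affymetrix U133 Plus 2.0 arrays of 5 HaCaT lines. The authors normalized the arrays with fRMA and deposited log2 values from which the processing date effect of a limma model of condition and date had been subtracted, so that the date coefficients fitted again were at most 1.2e-08 and the date effect removed depends on that model. RNA was isolated with RNeasy per the labels, while the study's sample sheet gives Trizol for date 6. Of 54675 probe sets 41097 carried a single gene symbol, 1801 several and 11777 none.

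The deposited log2 values were fitted with limma 3.58.1 in R 4.3.3, with 18 conditions and 6 dates, which leaves 35 residual degrees of freedom. P-values were moderated by empirical Bayes and adjusted by Benjamini-Hochberg over the 19775 genes, with a threshold of 0.05. The number of arrays limits the precision. Every member past the threshold in the 17 comparisons is named, and of the other lists some of the 4 with the largest change and a few more chosen after their values were seen. The probe set comparison adjusts over all single-symbol probe sets. The members and lists were chosen with earlier results of these data known. Samples were grouped by the labels. Same-numbered arrays deviated together in HaCaT-HRAS and HaCaT-vector (correlations 0.191 to 0.527) and in HaCaT-EGFR and HaCaT-vector in serum (0.216 to 0.529), which pairs them by the data alone. The fit was tested on simulated data. Alternatives were no date term, only the arrays compared, a filter on the mean, the mean of all probe sets, centred arrays, a replicate block, 4 h only, another control line, and each array left out in turn.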

Additional observations from a re-analysis of the deposited data

How the results depend on the processing

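No member called in any comparison changed direction under the alternatives, but counts of members called moved. Without the date term they were 1 for HaCaT-vector against HaCaT, 11 for starved HaCaT-EGFR and 9 for starved HaCaT-p65 against HaCaT-vector, 10 for serum against starvation, 5 and 2 for EGF in HaCaT-EGFR and HaCaT-vector, 1 for TNF in HaCaT-p65, 5 for gefitinib with serum, and 1 each for LY294002 and U1026, with for example 5212 of all genes called for starved HaCaT-EGFR, against 1560 with the date term. With only the arrays compared, they were 6 for HaCaT-p65 against HaCaT-vector in serum, 2 for starved HaCaT-EGFR and 2 for EGF in HaCaT-vector. They were 0 for serum against starvation and for gefitinib with EGF or serum. Fewer arrays estimate the spread in all of these fits, and starved HaCaT-p65 against HaCaT-vector could not be fitted. Among genes with a mean of at least 5, with fewer genes tested, they were 1 for HaCaT-vector against HaCaT (ADAM19), 5 and 2 for EGF in HaCaT-EGFR and HaCaT-vector, and 1 for U1026 (ADAMTS9). With the mean of all probe sets they were 2 for starved HaCaT-p65 and 0 for EGF in HaCaT-vector and gefitinib with EGF. With centred arrays they were 1 for TNF in HaCaT-p65 (ADAM32) and 0 for gefitinib with EGF. At 4 h only they were 2 for starved HaCaT-p65, 1 for EGF in HaCaT-EGFR and 0 for gefitinib with EGF or serum. Against HaCaT, chosen after seeing the data, HaCaT-p65 had 5. Apart from the example above, the all-gene counts are not given, so these counts are not read as results about the members. The cause of these shifts was not tested.

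With the replicate number as a block the counts were 5 for HaCaT-p65 against HaCaT-vector in serum, 1 for HaCaT-vector against HaCaT, 2 for EGF in HaCaT-vector, 1 for TNF in HaCaT-p65 (ADAMTS1) and 2 for gefitinib with serum. The numbers paired the arrays only for HaCaT-HRAS and HaCaT-EGFR in serum, where they were 8 and 3. Leaving out 1 array gave 5 to 6 for HaCaT-HRAS, 1 to 4 for HaCaT-p65 and 3 to 4 for HaCaT-EGFR in serum, 0 to 1 for HaCaT-vector against HaCaT, 0 to 5 and 0 to 4 for starved HaCaT-EGFR and HaCaT-p65, 0 to 3 for serum against starvation, 2 to 5 and 0 to 1 for EGF in HaCaT-EGFR and HaCaT-vector, 0 to 2 and 0 to 0 for TNF in HaCaT-p65 and HaCaT-vector, 0 to 2 for gefitinib with EGF and with serum, 0 to 0 for LY294002 and both interactions, and 0 to 1 for U1026. The lone inhibitor arrays could not be left out. For the block and for the arrays left out, too, the share of all genes called is not given.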
